A study of Mus musculus with 4 samples.

Results

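Foxp3, Ikzf2, Lrrc32, Gpr83, Izumo1r, Capg and Ecm1 stand here as identity genes of mouse regulatory T cells (Treg cells). The set was chosen with earlier results of these data known. The genes were taken by symbol from the gene tables of the series, where they make up 7 of 32285 genes, and were followed in every library through 4 kinds of T cell. These were Foxp3 cells with Klrg1 transcripts, Foxp3 cells without them, other Cd4 cells and Cd8 cells.

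The series asked how B7-H3, a checkpoint ligand made by tumor cells and encoded by Cd276, bears on the T cells inside a tumor. Cells of the Tsc2-deficient 105K line, a mouse kidney tumor line, carried either a control short hairpin RNA (sh-NC) or a hairpin against B7-H3, named sh-B7-H3 (1), and grew as subcutaneous tumors in wild-type C57BL/6J mice, young males according to the methods. Both groups therefore share the Tsc2 deficiency, the strain and a hairpin, and 1 hairpin stands for the knockdown. The 80 tumors of a group were pooled, live CD3+ cells were sorted, and RNA was counted together with antibody tags against surface proteins (CITE-seq) in 2 libraries per group. The series' design text describes the 2 libraries of a group as duplicate lanes of 1 pool and a legend of the study as independent samples, so the p-values below measure only the spread between these libraries, which may be technical. One pool per group also means that handling and knockdown cannot be told apart.

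Foxp3 is a forkhead transcription factor without which Treg cells do not form or hold their identity. Ikzf2 encodes Helios, an Ikaros-family zinc finger factor found in most thymus-derived Treg cells, Lrrc32 encodes GARP, which holds latent TGF-beta on the cell surface, and Gpr83 encodes a G protein-coupled receptor used as a Treg marker. Izumo1r encodes folate receptor 4, Capg an actin-capping protein of the gelsolin family, and Ecm1 a secreted matrix protein. Within tissues and tumors, Treg cells that carry Klrg1, the ST2 receptor chain Il1rl1 and Ccr8 are known as an effector state, and those with Ccr7 and Tcf7 as a resting, lymphoid state.

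In the annotation of GRCm38 (mm10), Foxp3 (ENSMUSG00000039521) lies on the plus strand of chromosome X from 7573644 to 7595245. Ikzf2 (ENSMUSG00000025997) lies on the minus strand of chromosome 1 from 69531214 to 69687245, and Lrrc32 (ENSMUSG00000090958) on the plus strand of chromosome 7 from 98489283 to 98502181. Capg (ENSMUSG00000056737) is on the plus strand of chromosome 6 from 72544391 to 72562983, and Ecm1 (ENSMUSG00000028108) on the minus strand of chromosome 3 from 95734147 to 95739569. Gpr83 (ENSMUSG00000031932; chromosome 9, 14860210 to 14870789, plus strand) and Izumo1r (ENSMUSG00000031933; chromosome 9, 14885814 to 14903949, minus strand) are neighbours whose ends lie 15024 bases apart.

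The promoters of 4 of the genes are printed: Gpr83 and Izumo1r because they are neighbours with different levels in the effector state, and Foxp3 and Ecm1 because they are, of the 5 genes with a promoter entry, those that hold TATAAA. Each line holds the 100 bases directly before the RefSeq start in GRCm38.p6, 5′ to 3′ on the gene's own strand, with TATAAA in capitals.
Foxp3, chrX:7579576-7579675, plus strand: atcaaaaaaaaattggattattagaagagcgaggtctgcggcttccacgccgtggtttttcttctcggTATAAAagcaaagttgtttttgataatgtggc
Ecm1, chr3:95739570-95739669, minus strand: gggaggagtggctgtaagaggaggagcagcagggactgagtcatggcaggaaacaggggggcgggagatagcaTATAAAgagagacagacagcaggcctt
Gpr83, chr9:14860110-14860209, plus strand: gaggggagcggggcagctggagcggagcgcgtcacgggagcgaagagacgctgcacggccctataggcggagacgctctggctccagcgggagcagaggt
Izumo1r, chr9:14903768-14903867, minus strand: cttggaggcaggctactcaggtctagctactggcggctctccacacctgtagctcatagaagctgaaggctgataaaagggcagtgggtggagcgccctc

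The RefSeq promoter table gave 6 entries for 5 of the genes (2 for Foxp3, of which the second, with no TATAAA, is not printed), and none was matched for Ikzf2 or Lrrc32. Over 250 bases before the start, both strands searched, TATAAA stood in 2 of these 6 entries and in 12.3% of 32536 mouse promoters. It began 32 bases before the start of Foxp3 and 27 before that of Ecm1. The forkhead motif TGTTTAC stood in 0 of the 6 entries and 3.17% of all promoters, the RUNX motif TGTGGT in 1 (Izumo1r) and 14%, and the NFAT core GGAAAA in 1 (Foxp3) and 20.4%. No motif searched contains another. These matches describe letters and were not tested as binding sites.

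Levels are given as unique molecular identifiers (UMIs) of a gene divided by all RNA UMIs of the cells in a class and put on the usual CPM scale. Because each molecule is counted once at its 3′ end, the values are not scaled by length, and levels are compared between classes and not between genes. The libraries held 79224898 to 132820909 RNA UMIs in 7030 to 12112 called barcodes, of which 17 to 35 were shared by any pair of libraries (0.242 to 0.427% of the smaller one). After filters on genes, mitochondrial UMIs and doublets, 2958 to 6469 cells remained per library. Kept cells of sh-NC were deeper, with medians of 7840 and 8334 UMIs against 6352.5 and 6539 in sh-B7-H3 (1). Cells with at least 5 UMIs of 8 macrophage genes made up 1.28 and 1.41% of the kept cells in sh-NC and 6.12 and 4.31% in sh-B7-H3 (1), and were left out of the T cell classes. Cd276 had 0, 1, 2 and 1 UMIs in the kept cells, so the sorted T cells hold no check of a hairpin that acts in the tumor cells. The TIGIT surface tag was uneven between libraries: it read 24.5 UMIs per other Cd4 cell in sh-B7-H3 (1) replicate 1 against 0.238, 0.268 and 0.518 in the other libraries. Per Cd8 cell it read 2.46 in sh-NC replicate 2, against 0.344 in sh-NC replicate 1 and 0.624 and 0.428 in sh-B7-H3 (1).

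In the order sh-NC replicate 1, sh-NC replicate 2, sh-B7-H3 (1) replicate 1 and sh-B7-H3 (1) replicate 2, which holds for all 4-value lists below, there were 314, 294, 147 and 167 Foxp3 cells. A Foxp3 cell had at least 1 Foxp3 UMI and no Cd8a or Cd8b1 UMI. Those with a Klrg1 UMI numbered 98, 112, 67 and 65, and those without 216, 182, 80 and 102. Other Cd4 cells, with a Cd4 UMI and no Foxp3, Cd8a or Cd8b1 UMI, numbered 1535, 1255, 608 and 824. All Cd4 cells, with a Cd4 UMI and no Cd8a or Cd8b1 UMI, with or without Foxp3 UMIs, numbered 1692, 1410, 690 and 914. A Foxp3 cell need not hold a Cd4 UMI, so all Cd4 cells leave out the Foxp3 cells that lack one. Cd8 cells, with at least 2 Cd8a or Cd8b1 UMIs and no Cd4 UMI, numbered 2762, 2422, 1174 and 1621.

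Of the 5 Treg markers Foxp3, Il2ra, Ikzf2, Ctla4 and Tnfrsf18, the first is fixed by the class rule, so the label was checked on the other 4. Their summed level was 2186, 2235, 2665 and 2627 CPM in the Foxp3 cells and 155, 173, 373 and 377 CPM in the other Cd4 cells, and all 4 had UMIs in the Foxp3 cells of every library. The T cell genes Cd3d, Cd3e, Cd3g and Trac summed to 3711 to 4359 CPM in the Foxp3 cells. Markers of natural killer and dendritic cells were at or near 0 there, at most 0.48 and 0.96 CPM summed. Genes of B cells summed to 13.5 to 21.9 CPM, of endothelial cells or platelets to 19.5 to 54.7, of tumor or stroma to 22.6 to 43.7 and of gamma-delta T cells to 4.1 to 23.5 CPM. In the other Cd4 cells these lists summed to 1.58 to 2.78, 31.1 to 61.2, 4.53 to 13.1 and 8.16 to 41.5 CPM. The 8 macrophage genes summed to 17.1, 25.4, 65 and 71.7 CPM in the Foxp3 cells, higher in both sh-B7-H3 (1) libraries. Of the 8, 6 were detected there in all libraries and Adgre1 was at 0 in all 4. The part of this difference in the results below was not tested.

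Ikzf2, Lrrc32, Gpr83, Izumo1r, Capg and Ecm1 were all far higher in the Foxp3 cells than in the other Cd4 cells of the same libraries, between 3.99-fold and 26.8-fold. The largest fitted fold was that of Lrrc32, which passed the filter on low counts only through the Foxp3 cells. It read 33.3, 31.2, 21.3 and 16.4 CPM in the Foxp3 cells and 0.671, 1.34, 0.965 and 0.35 CPM in the other Cd4 cells. The classes did not overlap, and the fitted difference over the 4 libraries was 26.8-fold (log2 4.74, SE 0.283, edgeR quasi-likelihood test with the library as block, adjusted p = 4.88e-07). Its level in the other Cd4 cells was close to the floor, so the size of this fold is uncertain and the test adds no support to the values.

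Ikzf2 read 821, 811, 1045 and 1014 CPM in the Foxp3 cells. In the other Cd4 cells it read 37.9, 46.9, 167 and 179 CPM, so the classes did not overlap although the sh-B7-H3 (1) libraries stood higher in both. The difference was 9.34-fold (log2 3.22, SE 0.269, edgeR adjusted p = 5.91e-06). Capg was 7.89-fold higher (log2 2.98, SE 0.0667, edgeR adjusted p = 2.28e-10), at a mean of 676 ± 110 CPM (SD, n = 4 libraries) against 74.8 ± 12.

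Gpr83 was 6.52-fold higher in the Foxp3 cells (edgeR adjusted p = 1.08e-06), at 33 ± 19.1 against 4.35 ± 2.36 CPM (SD, n = 4 libraries). Izumo1r was 4.12-fold higher (edgeR adjusted p = 3.01e-08), at 436 ± 11.7 against 92.5 ± 12.1 CPM, and Ecm1 3.99-fold higher (edgeR adjusted p = 8.89e-07), at 52.2 ± 10.1 against 11.3 ± 2.3 CPM. All 6 genes tested were thus past the threshold in the same direction. The genes were chosen with earlier results of these data known, so this count gives no independent support. Of the 9491 genes tested in this comparison 24.4% were called, and 13.4% were called as higher in the Foxp3 cells. With library totals in place of TMM factors the median over these genes was 0.19 in place of −0.02 on the log2 scale, 82.3% in place of 55% of the called genes were higher in the Foxp3 cells, and the 6 genes were called in the same direction. Foxp3 itself defined the classes and was not tested. It read 374, 385, 521 and 468 CPM in the Foxp3 cells.

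The order of levels over the 4 classes differed between the genes. Ikzf2 and Capg stepped down from Foxp3 cells with Klrg1 UMIs to those without, then to other Cd4 and Cd8 cells, and within each library no neighbouring classes changed places. Izumo1r read 507, 514, 525 and 432 CPM with and 427, 407, 357 and 415 CPM without Klrg1 UMIs, higher with them in 4 of 4 libraries by a margin smaller than for Ikzf2 and Capg. Ecm1 did not separate these 2 classes, at 68.5, 52.2, 49.8 and 33.5 against 62.5, 58.8, 42.8 and 47.7 CPM. Lrrc32 and Gpr83 were highest in the Foxp3 cells without Klrg1 UMIs. Cd8 cells were at the bottom of the order for Ikzf2, Izumo1r, Capg and Ecm1 in all 4 libraries, with Izumo1r at 22 to 26.7 CPM and Ecm1 at 2.03 to 2.92 CPM.

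**Figure D1:**
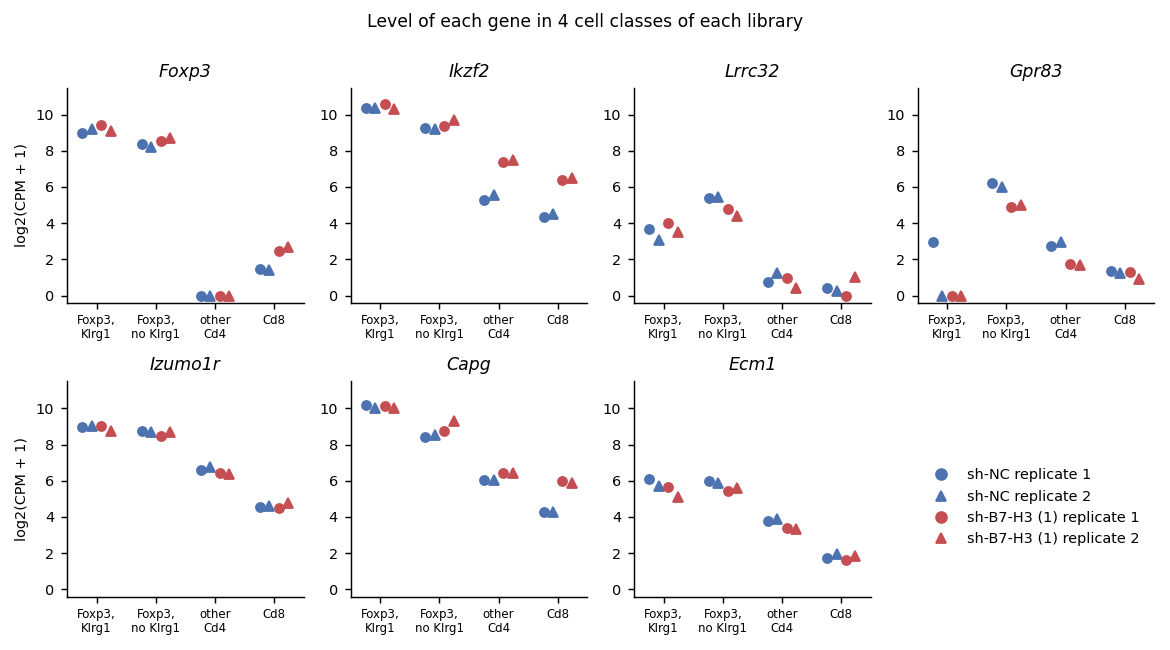
Each panel plots 1 gene as log2(CPM + 1) in Foxp3 cells with Klrg1 UMIs, Foxp3 cells without them, other Cd4 cells and Cd8 cells, with 1 point per library (circle replicate 1, triangle replicate 2, blue sh-NC, red sh-B7-H3 (1)). Gpr83 lies at 0 in 3 of 4 libraries in the first class and peaks in the second, while Capg and Ikzf2 peak in the first. Foxp3 is 0 in other Cd4 cells because the class was drawn that way.

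The UMIs of these genes were not held by the Foxp3 cells alone. Foxp3 cells with and without Klrg1 UMIs took 27.8 to 39.4% and 25.8 to 47.4% of all Foxp3 UMIs of the kept cells. They took only 11.3 to 24.3% and 9.22 to 25.4% of the Ikzf2 UMIs, since the other Cd4 cells held 12.2 to 23% and the Cd8 cells 12.8 to 23.9%. For Izumo1r and Ecm1 the other Cd4 cells held more than either Foxp3 class, at 24.5 to 30.7% and 22.5 to 28.6%. Between 14.3 and 45.8% of each gene's UMIs lay in cells that met no class rule.

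Most Foxp3 cells held several of the genes. Of the Foxp3 cells, 93.9, 95.6, 93.2 and 97.6% held a UMI of at least 1 of the other 6 genes, and 85.4, 90.1, 76.2 and 86.8% of at least 2. Of the other Cd4 cells, 56.4, 60.7, 70.4 and 69.2% held at least 1 and 20.4, 21.7, 27.3 and 27.1% at least 2, so 1 gene alone was common outside the Foxp3 cells too. Of the Cd8 cells 31, 32.6, 45.9 and 49.5% held at least 1. Among Foxp3 cells with Klrg1 UMIs the share with at least 1 was 98.5 to 100%.

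Cells with Foxp3 UMIs carried more of the other genes than Cd4-lineage cells without, and the levels did not rise at every further UMI. Over Cd4-lineage cells with 0, 1, 2 and 3 or more Foxp3 UMIs, Ikzf2 ran from 37.9 to 179 CPM over the libraries, then 376 to 702, 881 to 1294 and 968 to 1461. Lrrc32 ran from 0.35 to 1.34 CPM, then 3.09 to 25.3, 18 to 35.7 and 19.3 to 39. Ecm1 ran from 9.28 to 13.9, then 16.8 to 42.3, 31.5 to 82.4 and 59.7 to 94.5 CPM. From 2 to 3 or more UMIs, sh-B7-H3 (1) replicate 2 went from 1294 to 1104 CPM in Ikzf2, from 481 to 441 in Izumo1r and from 971 to 827 in Capg. In the same step sh-B7-H3 (1) replicate 1 went from 31.6 to 19.3 CPM in Lrrc32 and from 781 to 454 in Izumo1r, sh-NC replicate 1 from 989 to 970 in Ikzf2 and sh-NC replicate 2 from 82.4 to 59.7 in Ecm1. Izumo1r took its largest step between 0 and 1 UMI in every library but sh-B7-H3 (1) replicate 1, where that from 1 to 2 UMIs was larger. Gpr83 did not follow the count past 1 UMI: it ran from 18.6 to 46.5, 8.99 to 63.4 and 8.56 to 57.9 CPM. The median depth was 6660 to 8051 UMIs per cell at 0 Foxp3 UMIs and 6085 to 6849 at 3 or more. The groups of cells are small (23 cells with 2 UMIs in sh-B7-H3 (1) replicate 1), and the values are a description.

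**Figure D2:**
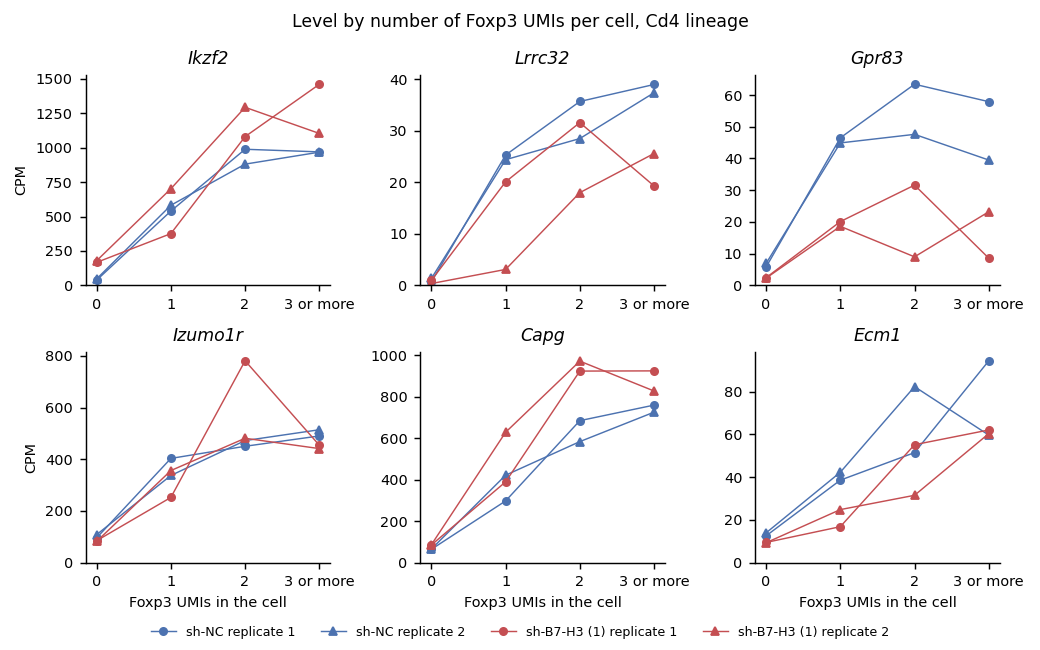
Each panel plots the CPM of 1 gene (own linear axis from 0) over Cd4-lineage cells with 0, 1, 2 and 3 or more Foxp3 UMIs, with 1 line per library. Ikzf2, Lrrc32, Izumo1r, Capg and Ecm1 lie higher at 3 or more Foxp3 UMIs than at 0 in all 4 libraries, and for Gpr83 the sh-NC libraries lie above both sh-B7-H3 (1) libraries at every count.

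Klrg1 split the set. Foxp3 cells with Klrg1 UMIs had more Capg and Ikzf2 and less Gpr83 and Lrrc32 than those without, and did not differ past the threshold in Izumo1r or Ecm1. Capg read 1170, 1045, 1130 and 1027 CPM with and 347, 373, 430 and 640 CPM without Klrg1 UMIs, 2.00-fold apart (log2 1.00, SE 0.127, edgeR adjusted p = 4.22e-06). Ikzf2 read 1343, 1297, 1523 and 1292 CPM with and 620, 580, 653 and 831 CPM without, 1.62-fold apart (log2 0.70, SE 0.111, edgeR adjusted p = 6.21e-05). Neither gene overlapped between the classes in any library.

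Gpr83 was nearly missing from the Klrg1 class. It had 4, 0, 0 and 0 UMIs there (6.85 CPM in sh-NC replicate 1 and, in the others, below floors of 4.47, 7.47 and 7.72 CPM set by 3 UMIs), against 73.7, 63, 28.6 and 30.6 CPM without Klrg1 UMIs. By cells this was 2 of 98, 0 of 112, 0 of 67 and 0 of 65, where a count of 0 allows shares up to 3.24, 5.36 and 5.52% (exact 95% binomial limits, covering counting error only). Without Klrg1 UMIs 24.1, 29.1, 10 and 9.8% of cells held a Gpr83 UMI. The test was past the threshold (edgeR adjusted p = 7.73e-08), but Gpr83 passed the filter on low counts only through the class where it is high. The test therefore adds no support to the counts. Its fitted log2 difference of −5.02 and the SE derived from it (0.454) depend on the prior count because 3 libraries are at 0.

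Lrrc32 read 12, 7.45, 14.9 and 10.3 CPM with Klrg1 UMIs, from 7, 5, 6 and 4 UMIs, and 41.5, 42.5, 26.5 and 20.4 CPM without. The classes did not overlap, and the ratio was 0.245 (log2 −2.03, SE 0.328, edgeR adjusted p = 7.71e-05). Lrrc32 also passed the filter only through the class without Klrg1 UMIs, so this test adds no support to the values. Ecm1 differed by a log2 of −0.41 (SE 0.180, edgeR adjusted p = 0.107). For Izumo1r the direction depends on the scaling. Its level was 495 ± 42.2 CPM with and 402 ± 30.9 CPM without Klrg1 UMIs (SD, n = 4 libraries), yet with TMM factors the fitted difference was −0.04 (SE 0.109, edgeR adjusted p = 0.828), while with library totals alone it was 0.31 (edgeR adjusted p = 0.0359). Between these scalings the median over all genes moved from −0.00 to 0.36, and the share of called genes that were higher with Klrg1 UMIs from 51.6 to 86.5%. In all 4 of 6 genes tested were called, beside 23.9% of the 5753 genes tested between these classes, and 5 with library totals alone. Gpr83 and Lrrc32 are among the 4 and entered the test only through the class without Klrg1 UMIs, so the count is not read as a result. The calls over all genes, 1374, were 798 without sh-NC replicate 1. So Gpr83 and its chromosome 9 neighbour Izumo1r parted, the former close to 0 in the Klrg1 class and the latter at 357 to 525 CPM in both.

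**Figure D3:**
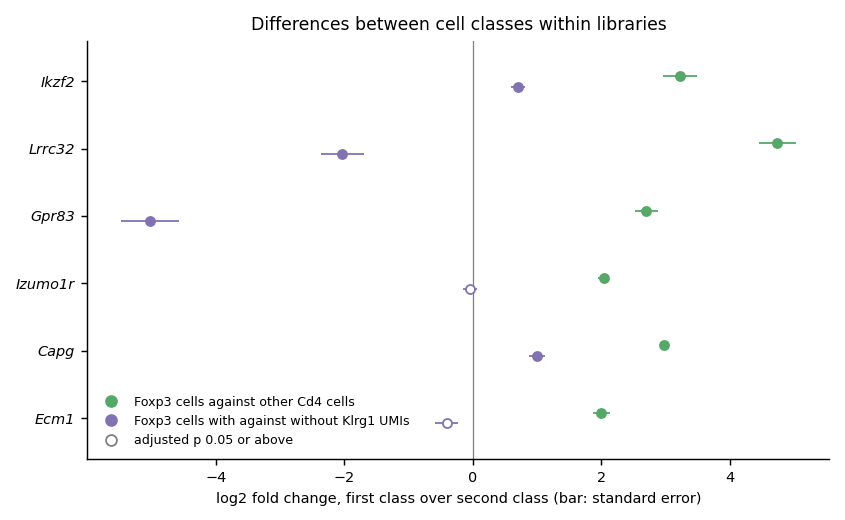
Points give the log2 fold change of each gene between Foxp3 and other Cd4 cells (green) and between Foxp3 cells with and without Klrg1 UMIs (purple), with bars of 1 standard error and open points at an adjusted p of 0.05 or above. All 6 green points lie right of 2.0 or at it, and the purple points of Lrrc32 and Gpr83 lie at −2.03 and −5.02 while those of Ikzf2 and Capg lie at 0.70 and 1.00.

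Foxp3 cells were also split by UMIs of the genes themselves. In the 54, 53, 8 and 10 Foxp3 cells that held a Gpr83 UMI, Capg read 303, 320, 424 and 236 CPM against 648, 667, 768 and 839 CPM in Foxp3 cells with no Gpr83 UMI. Ikzf2 was also lower, at 511, 618, 679 and 458 against 902, 866, 1071 and 1059 CPM. Lrrc32 was higher, at 73, 51.5, 136 and 111 against 22.8, 25.4, 13.2 and 8.85 CPM, and so was the lymph node homing receptor Ccr7, at 212, 174, 102 and 139 against 83.5, 84.7, 48 and 25.4 CPM. Each of these directions held in 4 of 4 libraries.

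Foxp3 cells with an Ikzf2 UMI differed in Capg, Klrg1, Il2ra and Ccr7. They carried more Capg, 674, 705, 923 and 900 CPM against 196, 157, 235 and 331 CPM without one, more Klrg1 (293, 285, 388 and 315 against 20.8, 47.7, 82.7 and 66.2 CPM) and more of the IL-2 receptor chain Il2ra (342, 326, 293 and 336 against 155, 145, 87 and 99.3 CPM). Their Ccr7 was lower, 77.2, 81.6, 22.6 and 22.6 against 238, 191, 135 and 82.8 CPM. Each of these 4 directions held in every library. Lrrc32 was higher with an Ikzf2 UMI in 3 of 4 libraries (38.3, 31, 28.7 and 17.6 against 13.9, 31.8, 0 and 11 CPM) and Gpr83 in 2 of 4 (61.1, 42.6, 19.6 and 17.6 against 32.3, 43.2, 4.35 and 22.1 CPM). In sh-B7-H3 (1) only 8 and 10 cells held Gpr83, and these splits carry no test.

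Genes of Treg function were mostly higher in the Foxp3 cells, where 24.4% of all genes tested were called and 13.4% called as higher. These lists too were chosen with earlier results of these data known. Of 11 suppressive-function genes 9 were higher in Foxp3 than in other Cd4 cells, 1 was lower and 1 did not pass (median log2 2.62, beside −0.02 over all genes tested). They included Areg, the tissue-repair ligand amphiregulin (log2 4.77), the CD80 and CD86 receptor Ctla4 (3.73) and Ebi3, a subunit of IL-35 (3.73), while the inhibitory receptor Lag3 was lower (−1.27). Of 9 IL-2 and TNF family receptors 6 were higher and 3 did not pass, led by Il2ra (log2 5.19), Tnfrsf4 (3.92) and Tnfrsf18 (2.63). Of 11 tissue effector genes 9 were higher, led by Il1rl1 (log2 5.60), Klrg1 (5.42) and the integrin chain Itgae (4.85). Within the other Cd4 cells alone, 10 of 11 suppressive and 10 of 11 tissue effector genes passed the filter on low counts. Genes that failed it there entered this comparison through the Foxp3 cells, and for them the test adds no support.

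Resting-state genes and genes that Foxp3 holds down were mostly lower. Of 9 resting-state genes 8 were lower in Foxp3 cells (median log2 −0.92), with the lymphoid transcription factors Tcf7 at −1.70, Lef1 at −1.24 and Satb1 at −1.12. All 6 tested of 7 genes that Foxp3 is known to hold down were lower, with interferon-gamma (Ifng) at −3.68, Dapl1 at −2.80 and Pde3b at −2.15. Of 10 Foxp3 partners and upstream factors 2 were higher (Ikzf4, which encodes Eos, at 2.05 and Stat5a at 0.91), 2 lower (Runx3 at −1.42 and Foxp1 at −0.76) and 6 did not pass.

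Between the Foxp3 classes the resting and effector lists stood apart again, in a comparison where 23.9% of all genes tested were called and 12.3% called as higher with Klrg1 UMIs. With Klrg1 UMIs, 9 of 11 suppressive genes were higher (median log2 1.24), led by Il10 at 3.47, Gzmb (granzyme B) at 2.38 and Fgl2 at 1.91. All 11 tissue effector genes were higher, with Il1rl1 at 2.53 and the chemokine receptor Ccr8 at 1.60, although Klrg1 in that list was fixed by the rule. Of the receptors 8 of 9 were higher (Tnfrsf9 1.92, Tnfrsf4 1.37) and Cd27 was lower (−0.44). All 8 resting genes tested were lower (median log2 −2.38), with the survival gene Bcl2 at −4.56, Ccr7 at −3.93 and Tcf7 at −3.80, as were the 4 held-down genes tested (median −3.53). Within cells with Klrg1 UMIs alone, only 5 of 9 resting and 1 of 7 held-down genes passed the filter on low counts. Within cells without them 9 of 11 tissue effector genes did. Genes that failed it in 1 class entered this comparison through the class where they are high, and for them the test adds no support.

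The antibody tags gave a protein readout that the RNA rules did not use. The CD25 tag, which binds the product of Il2ra, read 5.36, 4.91, 5.26 and 3.63 UMIs per Foxp3 cell and 1.2, 1.1, 1.21 and 0.877 per other Cd4 cell, 4.20-fold apart (edgeR adjusted p = 2.53e-05). The KLRG1 tag read 25.6, 24.7, 26.6 and 16.9 against 2.53, 2.41, 3.35 and 2.31 UMIs per cell, 8.49-fold apart (edgeR adjusted p = 0.000438). Of the tags chosen for Treg cells, CD73, CD278 (ICOS), CD357 (GITR), CD103 and CD134 (OX40) were also higher in Foxp3 cells, by 1.53-fold to 3.38-fold. CD304 (neuropilin-1) at 0.979-fold and CD39 at 0.946-fold did not pass, nor did CD152, PD-1, TIGIT and CD137. For CD39 that value covers opposite directions, with 122, 120, 156 and 104 UMIs per Foxp3 cell against 72.1, 75.4, 264 and 179 per other Cd4 cell, higher in both sh-NC and lower in both sh-B7-H3 (1) libraries. This difference between the groups was not tested. Outside the chosen tags, CD11b (2.32-fold, edgeR adjusted p = 0.0272) and I-A or I-E (2.23-fold, edgeR adjusted p = 0.000928), found on myeloid cells, were higher in Foxp3 cells. The tags of the TCR beta chain (0.634-fold, edgeR adjusted p = 0.00403) and CD90.2 (0.619-fold) were lower. CD3 was higher (1.15-fold), CD14 lower (0.923-fold), and CD4 (0.601-fold) and CD11c (1.03-fold) did not pass. The part of other cells in these values was not tested. Over all 197 named tags 20.8% were called. These 41 calls were 25 and 26 without sh-NC replicate 1 or 2, 28 and 20 without sh-B7-H3 (1) replicate 1 or 2, and 84 with DESeq2.

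Foxp3 cells with Klrg1 UMIs bound 8.15 times as much KLRG1 antibody as those without (edgeR adjusted p = 0.000159), so the RNA split was also a split in surface protein. CD39 (1.89-fold, edgeR adjusted p = 0.0144), CD137 (1.76-fold), CD25 (1.61-fold), PD-1 (1.57-fold), CD103 (1.45-fold), CD357 (1.41-fold) and CD152 (1.16-fold) were higher as well. Relative to all tag UMIs, CD137 was 10117, 8262, 6176 and 5858 CPM with and 4817, 3875, 5171 and 5165 CPM without Klrg1 UMIs. CD39 was 39669, 40206, 37849 and 34759 against 18330, 15862, 30378 and 29359 CPM. For both tags the gap was wider in both sh-NC libraries, a difference between the groups that was not tested. CD304 (0.923-fold), CD134 (0.937-fold) and CD73 (1.14-fold) did not pass, nor did CD278 (log2 0.58, edgeR adjusted p = 0.102) and TIGIT (log2 0.51, edgeR adjusted p = 0.103). For CD278 the scale matters: it read 34.2, 34.5, 24.5 and 14.7 UMIs per cell with and 15.3, 14.2, 22.6 and 12.5 without Klrg1 UMIs. Relative to all tag UMIs it was 6220, 6872, 4783 and 3983 against 3540, 3192, 5516 and 4149 CPM, higher in both sh-NC and lower in both sh-B7-H3 (1) libraries, a difference between the groups that was not tested. On that scale CD152 was higher with Klrg1 UMIs in 2 of 4 libraries. Outside the chosen tags, CD11b (2.39-fold) and I-A or I-E (1.92-fold) were also higher with Klrg1 UMIs. CD3 was higher (1.28-fold), the TCR beta chain lower (0.759-fold), and CD14 (0.934-fold) did not pass. The macrophage genes summed to 25.7, 41.7, 84.6 and 95.2 CPM with and 13.8, 17.7, 48.9 and 56.2 CPM without Klrg1 UMIs. Their part in these values was not tested. Here 22.3% of the 197 tags were called, 44 tags, and 24 without sh-NC replicate 1.

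The knockdown of B7-H3 in the tumor cells was compared class by class. In all Cd4 cells as one sum 6 of the 7 genes were called, beside 38.3% of 11048 genes: Foxp3, Ikzf2 and Capg rose, Gpr83, Izumo1r and Ecm1 fell, and Lrrc32 did not pass. In such a sum, a larger share of Foxp3 cells and more RNA per cell cannot be told apart, and most of these cells are the other Cd4 cells described below. Foxp3 read 30.3, 40.4, 60.6 and 39.1 CPM, so the groups overlapped, and the ratio was 1.31 (log2 0.39, SE 0.122, edgeR adjusted p = 0.0104). That call is lost without sh-NC replicate 1 (log2 0.19, edgeR adjusted p = 0.192), without sh-B7-H3 (1) replicate 1 (log2 0.08, edgeR adjusted p = 0.634), with no upper limit on genes (log2 0.34, edgeR adjusted p = 0.123) and with DESeq2 (adjusted p = 0.505), 4 of 16 alternatives. The Ecm1 call is lost in 5 of 16 alternatives, among them DESeq2 (adjusted p = 0.232) and leaving out replicate 2 of sh-NC (edgeR adjusted p = 0.116) or of sh-B7-H3 (1) (edgeR adjusted p = 0.12). Gpr83 read 9.04, 10.2, 2.77 and 3.99 CPM, both sh-B7-H3 (1) libraries below both sh-NC libraries, at a ratio of 0.342 (edgeR adjusted p = 1.41e-06).

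In Foxp3 cells with Klrg1 UMIs none of the set was called. Of the 5 genes that passed the filter on low counts (Gpr83 and Lrrc32 did not), 0 were past the threshold with edgeR and 2, Foxp3 and Ikzf2, had an unadjusted p under 0.05 (0.0190 and 0.0386). Only 1.00% of the 5699 genes tested were called in this class, 57 genes, with 519 at an unadjusted p under 0.05, 35 called by DESeq2 and 90 called by edgeR without sh-B7-H3 (1) replicate 1. Capg read 1170, 1045, 1130 and 1027 CPM (log2 0.09, SE 0.105, edgeR adjusted p = 0.870) and Izumo1r 507, 514, 525 and 432 CPM (log2 0.03, SE 0.130, edgeR adjusted p = 0.966), with the groups overlapping. Foxp3 read 498, 581, 699 and 540 CPM (log2 0.32, SE 0.130, edgeR adjusted p = 0.399). These are the smallest classes, and the Foxp3 level in them is bounded below by the rule that each cell holds a Foxp3 UMI.

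In Foxp3 cells without Klrg1 UMIs, Gpr83 fell and Capg rose, 2 of 7 genes beside 4.04% of 7172. These 290 calls were 138 without sh-NC replicate 1, 134 without sh-NC replicate 2 and 187 without sh-B7-H3 (1) replicate 2. Gpr83 read 73.7 and 63 CPM in sh-NC and 28.6 and 30.6 CPM in sh-B7-H3 (1), a ratio of 0.426 (log2 −1.23, SE 0.254, edgeR adjusted p = 0.00293). It rests on 112, 89, 14 and 18 UMIs. At an even depth of 1000 UMIs per cell its share of cells was 5.94 and 5.52% in sh-NC and 2.58 and 2.28% in sh-B7-H3 (1). When a Cd4 UMI was also required of a Foxp3 cell the difference was −1.33 on the log2 scale and missed the threshold (edgeR adjusted p = 0.0832).

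Capg read 347, 373, 430 and 640 CPM in the same cells, the groups apart, at a ratio of 1.47 (log2 0.55, SE 0.120, edgeR adjusted p = 0.00468). The call rests on single libraries: without sh-B7-H3 (1) replicate 2 it was 0.26 (edgeR adjusted p = 0.413) and without sh-NC replicate 1 it was 0.48 (edgeR adjusted p = 0.101). Lrrc32 read 41.5, 42.5, 26.5 and 20.4 CPM, with no overlap between groups and a log2 difference of −0.88 (SE 0.308) that did not pass (edgeR adjusted p = 0.111). Ikzf2 (0.28, edgeR adjusted p = 0.122), Ecm1 (−0.45, edgeR adjusted p = 0.356) and Izumo1r (−0.14, edgeR adjusted p = 0.591) did not pass either. Foxp3, counted among the 7, also missed the threshold (0.34, edgeR adjusted p = 0.0749), but the class rule bounds its level from below. Median depth was 6850 and 7382 UMIs in sh-NC and 6229 and 5667.5 in sh-B7-H3 (1), so the Foxp3 value is not read as a change. The macrophage genes summed to 13.8, 17.7, 48.9 and 56.2 CPM in this class, higher in sh-B7-H3 (1) as Capg was. Macrophage cells read 208, 187, 220 and 186 CPM of Capg. The part of macrophage or free RNA in the Capg difference was not tested.

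The difference in knockdown effect between the Foxp3 classes was itself past the threshold for 0 of the 7 genes (edgeR). Capg came nearest, with an effect lower by 0.45 on the log2 scale in the cells with Klrg1 UMIs (SE 0.183, unadjusted p = 0.0184, edgeR adjusted p = 0.335), and it was the only one of the 7 with an unadjusted p under 0.05. The 7 include Foxp3, which the rule bounds in both classes, and Gpr83 and Lrrc32, which failed the filter in the cells with Klrg1 UMIs. On simulated data this test found 30 of 100 differences of 2-fold, so 0 calls do not show equal effects. Over all 5753 genes 0.939% were called, 54 genes, with 551 at an unadjusted p under 0.05, 35 called by DESeq2, and with edgeR 2 without either sh-NC library and 174 without sh-B7-H3 (1) replicate 1.

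In other Cd4 cells all 5 genes tested were called (Lrrc32 did not pass the filter, and Foxp3 was excluded by the class rule), where 39.2% of 10821 genes were. Ikzf2 rose most, from 37.9 and 46.9 CPM to 167 and 179 CPM, 3.85-fold (log2 1.94, SE 0.0773, edgeR adjusted p = 2.02e-13). Capg rose 1.24-fold (log2 0.31, SE 0.0656, edgeR adjusted p = 0.000810), from 63.8 and 65.2 to 84.5 and 85.9 CPM. Gpr83 fell to a ratio of 0.348 (log2 −1.52, edgeR adjusted p = 0.000302), from 5.78 and 6.91 to 2.41 and 2.28 CPM. Izumo1r fell to 0.765 (edgeR adjusted p = 0.000182) and Ecm1 to 0.666 (edgeR adjusted p = 0.00768), and for each the groups were apart. The Ecm1 call is lost with DESeq2 (adjusted p = 0.145). This class mixes cell states, and the paper reports a larger share of Gzmk effector Cd4 cells in the knockdown. A shift in the mix and a change per cell therefore cannot be told apart for any of these genes.

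In Cd8 cells 3 of the 6 genes tested rose, where 43.5% of 11631 genes were called. Ikzf2 went from 19.3 and 21.5 to 83.2 and 88.3 CPM, 3.99-fold (log2 2.00, SE 0.0617, edgeR adjusted p = 3.45e-19), and Capg from 18.4 and 18.7 to 63.6 and 58.6 CPM, 3.09-fold (log2 1.63, edgeR adjusted p = 1.02e-16). Foxp3 went from 1.78 and 1.7 to 4.54 and 5.49 CPM (44, 38, 38 and 66 UMIs), 2.74-fold (edgeR adjusted p = 5.19e-06). Gpr83 (−0.45, edgeR adjusted p = 0.317), Izumo1r (0.02, edgeR adjusted p = 0.886) and Ecm1 (−0.24, edgeR adjusted p = 0.472) did not pass. The macrophage genes summed to 11.9, 12.1, 49.5 and 52.1 CPM in the Cd8 cells and to 11.1, 11.3, 54.1 and 50.8 CPM in the other Cd4 cells, and the gamma-delta T cell genes Trdc and Tcrg-C1 to 8.51, 13.4, 42.7 and 41.8 and to 14.2, 8.16, 34 and 41.5 CPM. Both lists moved with the group, and their part in these differences was not tested. Kept cells counted as holding UMIs of both Cd4 and Cd8 genes made up 1.24, 1.8, 2.87 and 3.48% and also moved with the group. Such cells meet the rule of neither class, but the part of other doublets left in the classes was not tested. In the Cd8 cells too, a shift in cell states and a change per cell cannot be told apart.

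**Figure D4:**
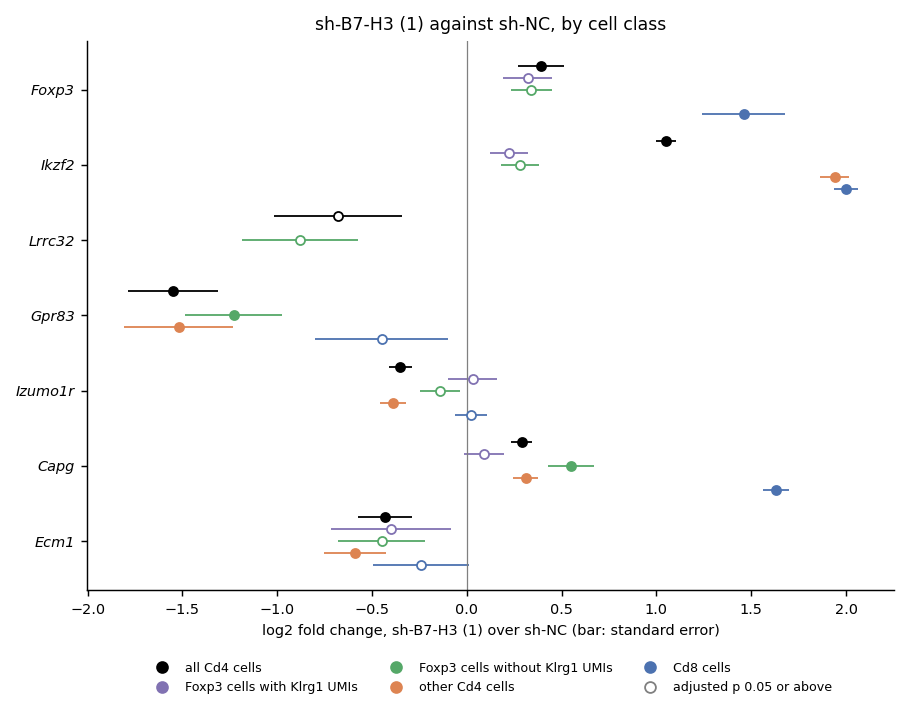
Points give the log2 fold change of each gene, sh-B7-H3 (1) over sh-NC, in 5 cell sets (colours), with bars of 1 standard error and open points at an adjusted p of 0.05 or above. For Ikzf2 the other Cd4 and Cd8 points lie at 1.94 and 2.00 and the 2 Foxp3 classes at 0.22 and 0.28, and every Gpr83 point lies left of 0.

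Levels outside the Foxp3 cells were set against 2 references: the macrophage cells, and barcodes with at most 100 UMIs, which hold free RNA. Macrophage cells came from the same CD3+ sort and can hold T cell RNA, so they are no pure measure of stray RNA. In sh-NC replicate 1 their Foxp3 share, 3.93%, lay above the 2.95% of all Cd4 cells at the same depth. At an even depth of 1000 UMIs per cell, Foxp3 was seen in 0.174, 0.169, 0.437 and 0.5% of Cd8 cells and in 3.93, 2.25, 1.87 and 1.76% of macrophage cells. Unthinned, these shares were 1.01, 0.95, 2.64 and 2.71% and 10.8, 5.26, 4.42 and 6.43%, with median depths of macrophage cells of 6186, 6009, 2371 and 2485 UMIs. The share of Cd8 cells lies below that of macrophage cells in each library and is not read as expression by Cd8 cells. Foxp3 in free RNA read 27.2, 31.5, 42.3 and 27.3 CPM, and its level in Cd8 cells was 0.0654, 0.054, 0.107 and 0.201 times that. The part of stray RNA in the Cd8 difference was not tested. Lrrc32 in other Cd4 cells lay at or below the macrophage share in 3 of 4 libraries and Ecm1 there in 4 of 4 (1.21, 1.38, 0.858 and 0.83% against 2.94, 3.26, 0.897 and 1.18%). Gpr83 was seen in 0.561, 0.667, 0.22 and 0.202% of other Cd4 cells and 0.467, 0, 0 and 0.435% of macrophage cells, and its level in other Cd4 cells was 0.905, 1.07, 0.673 and 0.367 times its free level of 6.39, 6.48, 3.58 and 6.22 CPM.

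Ikzf2 was seen in 3.54, 4.03, 13 and 13.6% of other Cd4 cells at that depth and in 10, 7.64, 6.69 and 5.89% of macrophage cells. The sh-NC values thus lie below those of the macrophage cells, and the sh-B7-H3 (1) values lie above them. How much of the sh-NC level is stray RNA was not tested. Unthinned, the shares of other Cd4 cells were 10.9, 11.9, 37.5 and 37.4%. In Cd8 cells the shares were 2.12, 2.47, 7.87 and 8.63%, above the macrophage cells in sh-B7-H3 (1) only. Ikzf2 in free RNA read 69.5, 60.1, 113 and 116 CPM, so its level in other Cd4 cells was 0.545, 0.78, 1.48 and 1.54 times the free level and in Cd8 cells 0.278, 0.358, 0.736 and 0.761 times. Capg in free RNA read 71.6, 76.6, 113 and 113 CPM, so free Capg was also higher in sh-B7-H3 (1). Its level in other Cd4 cells was 0.891, 0.851, 0.748 and 0.76 times the free level and in Cd8 cells 0.257, 0.244, 0.563 and 0.519 times. Macrophage cells express Capg and give no control for it.

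The knockdown effect on Ikzf2 differed between Foxp3 and other Cd4 cells. It was lower by 1.60 on the log2 scale in the Foxp3 cells (SE 0.0891, edgeR adjusted p = 1.00e-33). Both are effects on sums over cells, in which a shift in cell states and a change per cell cannot be told apart. For Izumo1r the effect was higher in the Foxp3 cells by 0.34 (edgeR adjusted p = 0.0216), where the level read 445 ± 5.42 CPM in sh-NC and 427 ± 7.48 CPM in sh-B7-H3 (1) (SD, n = 2 libraries each). That second call was lost in 7 of 14 alternatives run, with differences of 0.11 to 0.44. In all 2 of the 6 genes tested were called, beside 7.21% of 9491. These 684 calls were 418 without sh-NC replicate 1 and 442 without sh-NC replicate 2.

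The other Cd4 cells that held an Ikzf2 UMI numbered 167, 149, 228 and 308. Their Il2ra and Ctla4 lay below those of the Foxp3 cells and above those of other Cd4 cells with no Ikzf2 UMI. This split was chosen after values were seen and carries no test. Their Il2ra read 25.7, 32.7, 11.8 and 6.9 CPM, against 303, 288, 240 and 292 CPM in the Foxp3 cells and 3.9, 4.2, 5.13 and 5.93 CPM with no Ikzf2 UMI. Their Ctla4 read 79.5, 82.2, 44.1 and 47.4 CPM, against 275, 307, 319 and 311 CPM in the Foxp3 cells and 7.25, 6.46, 18.6 and 16.1 CPM with no Ikzf2 UMI. They bound CD25 antibody at 1.69, 1.92, 1.34 and 0.964 UMIs per cell, against 5.36, 4.91, 5.26 and 3.63. Their Izumo1r was 187, 244, 83.2 and 76.8 CPM, above that of the cells with no Ikzf2 UMI (85.6, 91.7, 85.3 and 84.8 CPM) in sh-NC only.

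They carried more Lag3, Pdcd1, Il2rb and Ifng than the other Cd4 cells with no Ikzf2 UMI. The inhibitory receptor Lag3 read 390, 392, 711 and 637 CPM in them, against 24, 27.8, 199 and 182 CPM. Pdcd1, which encodes PD-1, read 299, 317, 443 and 416 against 20.7, 24.4, 123 and 120 CPM, the IL-2 receptor chain Il2rb 472, 457, 1095 and 1000 against 25.7, 34.1, 284 and 255 CPM, and Ifng 202, 198, 505 and 261 against 19.9, 31.9, 99.5 and 114 CPM. Ccr7 was lower, at 78.7, 107, 5.59 and 17.9 against 190, 189, 136 and 120 CPM. The gamma-delta genes were also higher, at 35.9, 21.2, 67.7 and 74.5 against 11.8, 6.57, 12.6 and 21.2 CPM.

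Cd8 cells with an Ikzf2 UMI (248, 249, 305 and 439 cells) showed the same directions. Their Lag3 read 106, 134, 268 and 237 CPM against 16.9, 19.2, 118 and 99.4 CPM, their Pdcd1 168, 196, 331 and 308 against 22.8, 25.7, 121 and 112 CPM and their Il2rb 226, 251, 540 and 485 against 58.5, 68.9, 217 and 212 CPM. Ccr7 was lower, at 93.6, 95.9, 16.7 and 24.9 against 156, 149, 80.4 and 86.2 CPM. Within cells of either kind, with or without an Ikzf2 UMI, Lag3, Pdcd1 and Il2rb were higher in both sh-B7-H3 (1) libraries than in both sh-NC libraries.

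**Figure D5:**
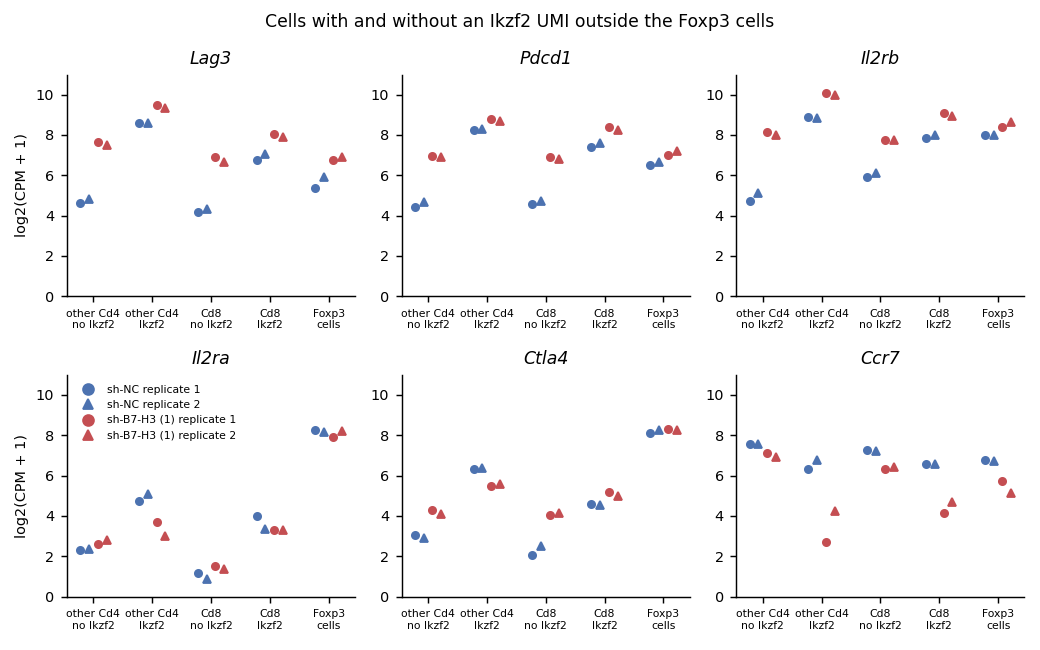
Each panel plots 1 gene as log2(CPM + 1) in other Cd4 and Cd8 cells without and with an Ikzf2 UMI and in Foxp3 cells, with 1 point per library. Lag3, Pdcd1 and Il2rb lie higher with an Ikzf2 UMI in all 4 libraries of both kinds of cell, while Il2ra stays at 6.9 to 32.7 CPM in the other Cd4 cells with Ikzf2, far under the 240 to 303 CPM of the Foxp3 cells.

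The Treg pathway lists were followed under the knockdown as well. In Foxp3 cells without Klrg1 UMIs, 6 of 11 suppressive genes rose and 0 fell (median log2 0.81, all genes 0.00), where 4.04% of all genes were called and 2.38% rose. Lag3 rose by a log2 of 2.55, from 19.1 and 14.9 to 81.6 and 121 CPM, and Areg (2.35) and Il10 (2.25) also passed. Areg was high in 1 library, at 3.29, 12.7, 77.5 and 10.2 CPM. Of 9 receptors 5 rose (Icos 0.75, Tnfrsf1b 0.74, Il2rb 0.64) and of 9 tissue effector genes tested 5 rose (Ccr8 1.65, Prdm1 1.34, Pdcd1 1.27). Of 9 resting genes 4 fell, Ccr7 by 1.16 and Bach2 by 1.06 on the log2 scale. Of 5 held-down genes tested Ifng was called as higher (2.84). Over all Foxp3 cells Ifng read 3.33, 2.4, 19.1 and 22.5 CPM. It passed the filter on low counts only through sh-B7-H3 (1), so its test adds no support to the values. Of 10 partners 1 fell, Foxp1, by 0.51. Lag3, Pdcd1, Prdm1, Il2rb, Tnfrsf1b and Ifng also rose in the other Cd4 cells described below, and Ccr7 fell there. In Cd8 cells 7 of 8 suppressive and 8 of 9 tissue effector genes tested rose and 8 of 9 resting genes fell, where 43.5% of all genes were called. These changes are therefore not particular to Foxp3 cells. Of all Foxp3 cells, 116, 106, 51 and 59 held only 1 Foxp3 UMI, and the part of misplaced Cd4 cells in this class was not tested.

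In Foxp3 cells with Klrg1 UMIs few list genes moved, and 1.00% of all genes were called. Of 11 suppressive genes Fgl2 rose (log2 0.60, edgeR adjusted p = 0.0201), and Gzmb and Areg fell. Gzmb read 688, 723, 259 and 183 CPM, the groups far apart, and fell by 1.55 on the log2 scale (edgeR adjusted p = 9.88e-09). Satb1 fell among 5 resting genes tested (by 1.48, edgeR adjusted p = 0.0145), and 0 of the receptors, 0 of the tissue effector genes, 0 of the 9 partners tested and 0 of the 1 held-down gene tested passed with edgeR.

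In the other Cd4 cells 39.2% of all genes were called and 20.2% rose (median log2 0.00). With library totals alone 65% in place of 51.4% of the called genes rose. Of the lists, 6 of 10 suppressive genes tested rose (Fgl2 2.59, Itgb8 2.57, Lag3 2.47) and 8 of 10 tissue effector genes tested rose (Tigit 2.61, Pdcd1 2.11, Prdm1 1.89). Of 9 receptors 5 rose (Il2rb 2.84, Tnfrsf9 1.77, Tnfrsf1b 1.69) and Il2rg fell by 0.18. Of 9 resting genes 8 fell, Tcf7 by 1.31, Ccr7 by 1.21 and Lef1 by 1.18, and Bcl2 rose by 0.21. Of the partners, Ikzf4 (1.85) and Runx3 (1.79) rose and Foxp1, Foxo1 and 2 others fell. Of 7 held-down genes 2 rose and 4 fell, with Ifng at 2.17 and Igfbp4 at −1.43.

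The shares of cells with Foxp3 UMIs overlapped between the groups. At an even depth of 1000 UMIs, 2.95, 4.05, 4.86 and 3.69% of all Cd4 cells held one, a ratio of group means of 1.22 (exact permutation test, two-sided, p = 0.667, n = 2 libraries per group). Unthinned, the shares were 9.28, 11, 11.9 and 9.85%. All Cd4 cells leave out the Foxp3 cells with no Cd4 UMI, so these are not shares of the whole Cd4 lineage. At 1000 UMIs, Cd4 was seen in a mean of 22.9% of other Cd4 cells in sh-NC and 37.5% in sh-B7-H3 (1). In Foxp3 cells these means were 11.8 and 14.6%. The part of this uneven detection in the shares was not tested. The share of Foxp3 cells with a Klrg1 UMI was 20.7, 23.8, 28.2 and 20.3% at that depth, a ratio of 1.09 (exact permutation test, two-sided, p = 1). With 2 libraries against 2, a p below 0.05 cannot be reached, since at least 2 of the 6 arrangements are as extreme as the one observed. Unthinned, the second share was 31.2, 38.1, 45.6 and 38.9%.

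Across the 16 sums of 4 classes and 4 libraries, the genes whose log2 levels were most like the mean of Ikzf2, Lrrc32, Gpr83, Izumo1r, Capg and Ecm1, of 5796 genes compared, were Il2ra (Pearson r = 0.964), Tmem64 (0.961), Zscan29 (0.959), Tiam1 (0.953) and Pbx2 (0.951). The sums share libraries and differ in depth, so the values describe likeness only. Set against the mean of the other 5, Ecm1 (0.965), Izumo1r (0.952) and Lrrc32 (0.939) were closest, Capg (0.872) and Ikzf2 (0.859) followed, and Gpr83 was least like the rest (0.349).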

How the data were processed

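Tumor-infiltrating CD3+ cells of 2 groups were profiled in 2 libraries each with 10x Genomics 3′ chemistry and antibody tags. The authors aligned the reads to mm10 and deposited UMI counts per gene and tag for called barcodes. Cell Ranger and Seurat 4.0.0 are named in the submitters' processing notes, and the file headers and the methods name different Cell Ranger versions. Raw matrices of all barcodes served only for the free RNA.

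From the deposited counts, cells were kept if they showed between 200 and 3000 genes and took no more than 5% of their UMIs from mitochondrial genes. Doublets were scored before the limit of 3000 genes was applied and made up 28.8 to 30.5% of the cells at that step. They were removed by a score against simulated doublets with an Otsu threshold per library, and macrophage cells were left out. Classes were called from RNA UMIs, as no cell annotation was used here. Counts were summed per library and class and tested with the quasi-likelihood test of edgeR 4.0.16 (R 4.3.3; TMM factors, filterByExpr), without a block for the knockdown and with the library as block between classes. A call is a Benjamini-Hochberg adjusted p under 0.05 over all genes tested. Each SE, also in the figures, is the absolute log2 fold change divided by the square root of the quasi-likelihood F. It is derived from the test and was not estimated separately. The scripts ran on Python 3.11.15 with numpy 2.4.6, scipy 1.17.1 and pandas 2.3.3, and each comparison across genes was first tested on simulated data. Shares of cells were compared at 1000 UMIs per cell, and intervals are exact binomial at 95%, covering counting error only.

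The 7 genes and the lists were chosen with earlier results of these data known. All 7 genes are named, and of a list the genes past the test with the 3 highest and 3 lowest changes, or fewer. Alternatives were DESeq2 1.42.0, relative log expression factors, no filter on low counts, leaving out each library, a replicate block, and other cell filters. Library totals without TMM factors, the crossed block and the alternatives for the differences of effect and the tags were chosen after seeing the data. The limit of 3000 genes leaves out the deepest cells, so levels describe the shallower part of each library.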

Additional observations from a re-analysis of the deposited data

Results flagged for a closer look

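The knockdown effect on 2 of the genes differed past the threshold between Foxp3 cells and other Cd4 cells, by a test of the difference itself. For Ikzf2 it was −1.60 on the log2 scale (edgeR adjusted p = 1.00e-33): the level went from 816 ± 6.95 to 1030 ± 21.5 CPM (SD, n = 2 libraries each) in Foxp3 cells and from 42.4 ± 6.39 to 173 ± 8.49 CPM in other Cd4 cells. For Izumo1r it was 0.34 (edgeR adjusted p = 0.0216), a call lost in 7 of 14 alternatives (0.11 to 0.44, largest adjusted p = 0.792).

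Between Foxp3 cells with and without Klrg1 UMIs the knockdown effect differed for 8 genes of the lists, where 0.939% of all genes tested were called. They were 3 of 11 suppressive genes, 3 of 9 receptors and 2 of 11 tissue effector genes, beside 0 of 8 resting genes, 0 of 9 partners and 0 of 4 held-down genes tested. The effect on each of the 8 was lower in the cells with Klrg1 UMIs: Gzmb by −2.38 (edgeR adjusted p = 1.57e-07), Lag3 by −2.37, Areg by −4.00, Pdcd1 by −1.49, Maf by −0.85, Icos by −0.81, Tnfrsf4 by −0.69 and Tnfrsf18 by −0.66. Gzmb read 688, 723, 259 and 183 CPM with and 40.8, 68, 77.5 and 114 CPM without Klrg1 UMIs, so it stood lower in both sh-B7-H3 (1) libraries in the first class and higher in both in the second. Lag3 read 95.9, 154, 137 and 118 CPM with and 19.1, 14.9, 81.6 and 121 CPM without. Lag3 and Pdcd1 also rose in the other Cd4 cells, and the part of misplaced Cd4 cells in the class without Klrg1 UMIs was not tested. Areg read 41.1, 103, 27.4 and 15.4 CPM with and 3.29, 12.7, 77.5 and 10.2 CPM without, where 1 library stands above the rest. Of all genes called 24.1% had the higher effect in the cells with Klrg1 UMIs, but 68.6% with DESeq2 and 62.6% without sh-B7-H3 (1) replicate 1. The count of all genes called in this comparison, 54, was 35 with DESeq2, 2 without sh-NC replicate 1, 2 without sh-NC replicate 2 and 174 without sh-B7-H3 (1) replicate 1.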

How the results depend on the processing

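Of 28 calls on the 7 genes 22 were kept under every alternative in which they could be tested and 6 were lost under at least 1: Foxp3 and Ecm1 in all Cd4 cells, Gpr83 and Capg in Foxp3 cells without Klrg1 UMIs, Ecm1 in other Cd4 cells (DESeq2 adjusted p = 0.145) and the Izumo1r difference of effect. In each case the cause was not tested. Capg in Foxp3 cells without Klrg1 UMIs was also lost at a mitochondrial limit of 10% (log2 0.34, edgeR adjusted p = 0.18), and Ecm1 in all Cd4 cells without sh-NC replicate 2 (edgeR adjusted p = 0.116) and without sh-B7-H3 (1) replicate 2 (edgeR adjusted p = 0.12). The 2 genes called in Foxp3 cells without Klrg1 UMIs were 1 with DESeq2, where Gpr83 had no adjusted p, 4 with doublets kept, 4 with no upper limit on genes, 0 with a Cd4 UMI required, and 1 to 4 with 1 library left out (1 without sh-NC replicate 1 or sh-B7-H3 (1) replicate 2, 4 without sh-B7-H3 (1) replicate 1). The 4 called between Foxp3 cells with and without Klrg1 UMIs were 2 of 4 tested with a Cd4 UMI required, where Gpr83 and Lrrc32 fell under the filter. The 0 of the difference of effect between these classes became 1 with library totals alone and without sh-B7-H3 (1) replicate 1 (range 0 to 1), and the 2 between Foxp3 and other Cd4 cells became 1 with library totals alone, with DESeq2, with 10% mitochondrial UMIs and with a Cd4 UMI required (1 to 2 with 1 library left out). Tags called between Foxp3 and other Cd4 cells, 41, were 84 with DESeq2, 26 with no library block and 20 to 28 with 1 library left out, and those between the Foxp3 classes, 44, were 27 with no block and 24 to 46. The ratio of the Klrg1 share was 0.912 to 1.27 with 1 library left out. Of genes not called, Izumo1r turned sign in Foxp3 cells with Klrg1 UMIs (−0.17 with a Cd4 UMI required, −0.10 with library totals alone, −0.09 to 0.14 with 1 library left out), in those without (0.03 with doublets kept, 0.06 with at least 2 Foxp3 UMIs), in Cd8 cells (−0.01 with no filter, −0.15 to 0.13) and between the Foxp3 classes (0.00 with a Cd4 UMI required, 0.31 and past the threshold with library totals alone), Capg in Foxp3 cells with Klrg1 UMIs (−0.04 with library totals alone, −0.01 to 0.17) and Ecm1 in those without (0.05 with a Cd4 UMI required).

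Counts over all genes moved by over 1.5 times as follows. DESeq2, a separate fit, gave 2195 in place of 4228 in all Cd4 cells, 2276 in place of 4247 in other Cd4 cells and 2989 in place of 5065 in Cd8 cells. It gave 35 in place of 57 and 106 in place of 290 in Foxp3 cells with and without Klrg1 UMIs, and 1452 in place of 2319 between Foxp3 and other Cd4 cells. Between the Foxp3 classes it gave 629 in place of 1374 (2287 with library totals alone), and for the differences of effect 35 in place of 54 and 157 in place of 684. In Foxp3 cells with Klrg1 UMIs they were 28 with doublets kept, 30 with at least 2 Foxp3 UMIs, 21 with a Cd4 UMI required and 39 to 90 with 1 library left out, and in those without 461, 158, 98 and 134 to 382. Between Foxp3 and other Cd4 cells there were 1427 with no library block, and between the Foxp3 classes 898 with at least 2 Foxp3 UMIs, 859 with a Cd4 UMI required and 798 to 1439 with 1 library left out. The difference of effect between the Foxp3 classes gave 92 with no filter, 91 with doublets kept, 110 with no upper limit on genes, 24 at a mitochondrial limit of 10%, 98 with macrophage cells kept and 2 to 174 with 1 library left out, and that between Foxp3 and other Cd4 cells 420 with a Cd4 UMI required and 418 to 528. With library totals alone the difference of effect between the Foxp3 classes gave 115 calls in place of 54. The share of called genes that rose was then 64.4 in place of 51.2% in all Cd4 cells, 65.9 in place of 50.8% in Cd8 cells, 47.3 in place of 84.2% in Foxp3 cells with Klrg1 UMIs, and 23.5 in place of 45.2% for the difference of effect between Foxp3 and other Cd4 cells. The same replicate numbers do not pair the libraries (correlation of replicate differences −0.215 in all Cd4, −0.135 in other Cd4, −0.139 in Cd8 cells, 0.007 and 0.080 in Foxp3 cells with and without Klrg1 UMIs). With the replicate block 4010, 4070, 5137, 86 and 382 genes were called in these sets, and no member's call was lost. Foxp3 in the last class then had an edgeR adjusted p of 0.049, which is not read as a change because the class rule requires a Foxp3 UMI. The crossed pairing gave 4368, 4486, 5035, 6 and 390. Depth limits Gpr83 and Lrrc32, at 0 to 7 UMIs per library in Foxp3 cells with Klrg1 UMIs.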

Other observations

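Further splits of the Foxp3 cells were run over all of them and not within a Klrg1 class, and Klrg1 moved with them. Foxp3 cells with an Lrrc32 UMI held more Gpr83 than those without, at 133, 68.9, 74.5 and 124 against 37.8, 38, 8.77 and 6.83 CPM, and their Il2ra, Izumo1r and Ecm1 were higher and their Klrg1 and Il1rl1 lower in 4 of 4 libraries. Foxp3 cells with a Capg UMI held more Ikzf2, at 956, 901, 1264 and 1155 against 413, 416, 206 and 363 CPM. Foxp3 cells with a Gpr83 UMI held more Ecm1 in each library, at 79.8, 90.1, 153 and 139 against 60.1, 47, 38.4 and 34.3 CPM. Klrg1 read 308, 285, 383 and 314 CPM with a Capg UMI against 22.8, 12.9, 27 and 57.6 CPM without, and 22.8, 0, 0 and 0 CPM with a Gpr83 UMI against 293, 302, 331 and 290 CPM without. These splits use a UMI of a gene measured in the same cells and carry no test.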
